A study of Saccharomyces cerevisiae with 8 samples.

Results

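The 4 arrays described here are the repeat cultures of budding yeast strains that lack both genomic copies of RPL12 and carry one copy back at high dosage. RPL12A and RPL12B are duplicate genes for Rpl12, a large subunit ribosomal protein found at the base of the stalk where translation factors bind. The strains, called plus RPL12A and plus RPL12B, have 2 arrays each, labelled biological replicate 2 and biological replicate 1, and these 4 arrays were chosen by those labels out of 8 in the series. The other 4 arrays are the wild type and the double deletion, with 2 replicates each. All strains are of the W303 background and were grown at 30 °C in minimal medium with 2% glucose, with the required supplements, to an A600 of 0.5 to 0.6. The labels give the genotype of the plasmid strains as the double deletion with high copy RPL12A or RPL12B; they do not give the promoter, the plasmid's marker or the number of transformants. They also do not say whether cultures with the same replicate number were grown, extracted or hybridised together, so the differences may be partly technical. The main test sets each difference against the disagreement between the plasmid strains, with spread borrowed across genes. Its p-values do not measure the spread between cultures of 1 genotype. The comparison asks which functions vary between cultures of 1 genotype, with replicate 2 set against replicate 1 within each strain. The main test favours variation that same-numbered cultures of both plasmid strains share, and can miss the rest.

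Yeast growing on ample glucose ferments it, represses genes for other carbon sources and builds little storage carbohydrate. As glucose falls or growth slows, cells make high-affinity hexose transporters, lay down glycogen and trehalose, raise stress-protection and respiratory genes, and lower genes for ribosome assembly and for passage through G1. These programmes are background here; the arrays measure messenger RNA only.

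The presence or absence of the deleted genes followed the labels on every array. RPL12A had a signal of 5732 and 6079 on replicates 2 and 1 of plus RPL12A and of 5269 and 5321 in the wild type, against 15.5 and 8.18 in plus RPL12B and 6.88 and 28.8 in the double deletion. RPL12B had a signal of 6446 and 5469 on replicates 2 and 1 of plus RPL12B and of 7040 and 6537 in the wild type, against 20.1 and 48.5 in plus RPL12A and 1.71 and 17.3 in the double deletion. The returned gene thus read near its wild type level, and the signal did not show the high copy number that the labels give. Transcripts of a-mating-type cells were present on the 4 plasmid arrays (STE2, the alpha-factor receptor, at 2502 to 2866) and those of alpha cells were low (STE3, the a-factor receptor, at 35.3 to 52.7). The background of an array, taken as the 95th percentile of its S. pombe probe sets, lay between 7.42 and 8.72. The deleted genes read up to 48.5 where they were absent, so signals above this background need not mean transcript. Low values in that range include MRK1 and YJR115W on replicate 1 and BSC1 and RRT5 on replicate 2 of the plasmid strains. The size of their log2 differences, given below, is therefore uncertain.

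Signals differed between the cultures in many genes. With limma on log2 signal, strain as a block and a Benjamini-Hochberg adjusted p under 0.05, 1304 of 5437 genes tested differed between replicate 2 and replicate 1, which is 24.0%. Of these, 512 were higher on replicate 2 (9.42%) and 792 were lower (14.6%), and 101 were at least 2-fold higher (1.86%) and 80 at least 2-fold lower (1.47%). Both replicate 2 arrays lay beyond both replicate 1 arrays in 1299 of the called genes, while over all genes 27.3% lay wholly above and 36.5% wholly below. Counted without a test, 82 genes were at least 2-fold higher on replicate 2 in plus RPL12A (1.51%) and 86 lower (1.58%), and in plus RPL12B 149 were higher (2.74%) and 93 lower (1.71%). In the wild type 22 were higher (0.405%) and 23 lower (0.423%), and in the double deletion 18 were higher (0.331%) and 38 lower (0.699%). The replicate differences thus spread more widely over genes in the plasmid strains, with an SD of 0.42 in plus RPL12A and 0.48 in plus RPL12B, than in the wild type (0.27) or the double deletion (0.30), on the log2 scale. With 2 arrays against 2, an exact 2-sided permutation test of 1 gene could not go below p = 0.333. Every call therefore rests on the spread that limma shares across genes. On simulated data the share of false calls of this test exceeded the threshold in some runs. More of the 1304 calls may thus be false than the threshold implies. The split depended on scaling, with 397 higher and 403 lower when arrays were centred on their median gene and 366 higher and 953 lower when they were centred on hybridisation controls. A fit to all 8 arrays, with a separate replicate term for the wild type and double deletion, called 996 genes. With no such term, replicate differences in the wild type and double deletion counted as spread and 538 genes were called. This last fit is the 8-array fit meant below. With 1 plasmid array left out of that fit, the count was 88 without plus RPL12A replicate 1, 89 without plus RPL12A replicate 2, and 13 without either replicate of plus RPL12B.

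**Figure D1:**
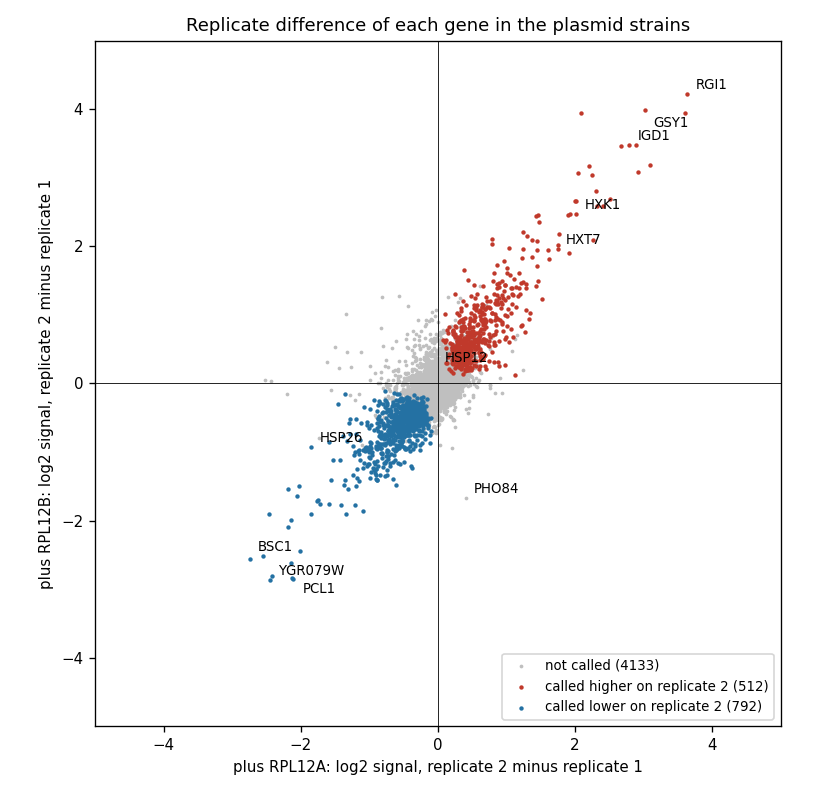
Each point is a gene, placed by its log2 signal difference, replicate 2 minus replicate 1, in plus RPL12A (x) and plus RPL12B (y), with the 512 genes called higher in red, the 792 called lower in blue and the 4133 not called in grey. RGI1 and GSY1 lie far to the upper right, BSC1 and PCL1 to the lower left, and PHO84 has opposite signs in the strains.

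The changes ran the same way in both strains. Across genes, the replicate differences of plus RPL12A and plus RPL12B had a Pearson r of 0.80, given as a description over 5437 genes that share arrays. The same measure between either plasmid strain and the wild type was 0.41 and 0.34, and with the double deletion it was 0.28 and 0.05. All 1304 called genes had the same sign in both plasmid strains, a direction that the test itself favours, against 4079 of the 5437 genes tested.

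Genes of storage carbohydrate rose most among the 42 lists examined. Of the 22 genes of trehalose and glycogen metabolism, 17 were called higher on replicate 2 (77.3%, against 9.42% of all genes) and none was called lower; 15 to 17 were called higher under the 3 other scalings and in the 8-array fits with their own replicate term for the plasmid strains. Without either plus RPL12A array 7 were called in the 8-array fit, and without either plus RPL12B array 4. The median difference over the list was 1.01 on the log2 scale, against -0.03 over all genes. It was 0.79 in plus RPL12A and 1.23 in plus RPL12B, but 0.02 in the wild type and -0.29 in the double deletion.

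Glycogen-making enzymes stood out. GSY1, a glycogen synthase, had a signal of 912 in plus RPL12A and 1292 in plus RPL12B on the replicate 2 arrays, against 112 and 81.6 on the replicate 1 arrays, a mean log2 difference of 3.51 (SE 0.18, n = 2 arrays each, limma adjusted p = 4.3e-08). GLC3, the branching enzyme, had 2965 and 3447 on replicate 2, against 390 and 408 on replicate 1. GAC1, which directs the Glc7 phosphatase to glycogen synthase, had 522 and 617 on replicate 2, against 98.6 and 102 on replicate 1. All 3 genes were far apart between the replicates in each plasmid strain and closer in the others: GSY1 had 77.8 and 67.5 on replicates 2 and 1 in the wild type and 167 and 173 in the double deletion. PGM2, the major phosphoglucomutase, had 2229 and 3120 on replicate 2, against 467 and 379 on replicate 1. GLG1, a glycogenin that primes the polymer, rose by 1.34 on the log2 scale. GSY2, the second glycogen synthase, rose by 0.76.

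Enzymes of glycogen breakdown moved the same way as those of its synthesis. GPH1, glycogen phosphorylase, had 1494 and 2136 on replicate 2, against 547 and 505 on replicate 1, a log2 difference of 1.77. GDB1, the debranching enzyme, rose by 0.72, and IGD1, which inhibits it, had 895 and 1179 on replicate 2, against 129 and 106 on replicate 1. MRK1, a kinase of the glycogen synthase kinase 3 family that is not on the list, had 356 and 532 on replicate 2, against 47.7 and 47.7 on replicate 1. In all 4 genes both replicate 2 values lay above both replicate 1 values, as in 27.3% of all genes; for IGD1 and MRK1 the choice of named genes fixed this.

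Trehalose genes rose as well. TSL1, a regulatory subunit of the trehalose synthase complex, had 1269 and 1993 on replicate 2, against 456 and 390 on replicate 1, a log2 difference of 1.92. TPS2, the trehalose phosphatase, had 2257 and 2755 on replicate 2, against 824 and 712 on replicate 1. TPS1, the trehalose phosphate synthase, had 2743 and 2966 on replicate 2, against 1679 and 1240 on replicate 1. The neutral trehalase NTH1 rose by 0.39, while the related NTH2 (-0.18), the acid trehalase ATH1 (0.20), the minor phosphoglucomutase PGM1 (-0.13), the second glycogenin GLG2 (-0.12) and the Glc7-binding PIG1 (-0.14) did not pass the test. GSY2, GPH1, GDB1, GLG1, TPS1, TPS2, TSL1, NTH1 and these 5 uncalled members were named after their values were seen.

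**Figure D2:**
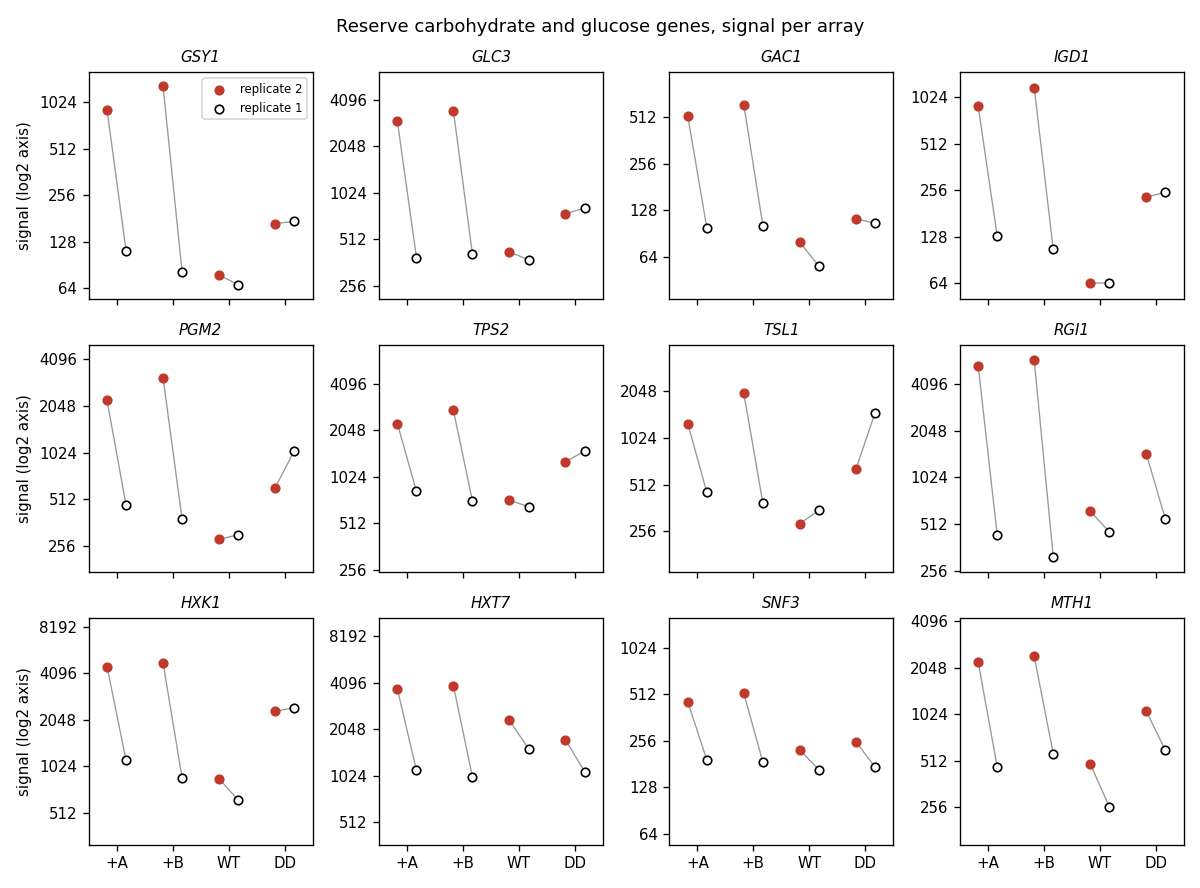
Signal on each array (log2 axis, with the same number of doublings in each panel) of 12 genes of storage carbohydrate and glucose use, with replicate 2 filled and replicate 1 open, in plus RPL12A (+A), plus RPL12B (+B), wild type (WT) and double deletion (DD). In all 12 genes replicate 2 lies above replicate 1 in both plasmid strains, while TSL1 and PGM2 lie lower on replicate 2 than on replicate 1 in the double deletion.

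Some genes for taking up and sensing scarce glucose also rose. Of 23 genes of hexose transport and its control, 7 were called higher (30.4%, against 9.42% of all genes) and none lower, with a median of 0.26. The median was 0.16 in plus RPL12A and 0.63 in plus RPL12B, and 0.23 in the wild type and 0.08 in the double deletion. The 8-array fit called 4 higher, and 0 with any 1 plasmid array left out. HXT7, a high-affinity transporter, had 3722 and 3906 on replicate 2, against 1107 and 1001 on replicate 1, a log2 difference of 1.86 (SE 0.09, limma adjusted p = 3.1e-08). HXT2, another transporter of scarce glucose, had 3365 and 3496 on replicate 2, against 1382 and 1326 on replicate 1. HXT4 had 4001 and 4208 on replicate 2, against 2182 and 2196 on replicate 1. In each of these genes the strains lay close together within a replicate. HXT7 shares much of its sequence with HXT6, which has no probe set of its own among the named ones, so its signal may include both. The sensor of low glucose SNF3 rose by 1.36, MTH1, which acts downstream of it in the control of transporter genes, by 2.17, and the repressors MIG1 and MIG3 by 0.76 and 1.01. The low-affinity transporters of high glucose did not pass the test: HXT1 had 3612 and 4001 on replicate 2, against 3238 and 3425 on replicate 1 (log2 difference 0.19, adjusted p = 0.062), and HXT3 differed by 0.15 (adjusted p = 0.077). HXT4, HXT3, MIG1 and MIG3 were named after their values were seen. HXT2 was also higher on replicate 2 outside the plasmid strains, with 3677 against 2453 (wild type) and 2445 against 601 (double deletion). So were HXT7 (0.61, 0.68), HXT4 (0.46, 0.87), MTH1 (0.92, 0.83), SNF3 (0.42, 0.54) and MIG3 (0.48, 0.75). The bracketed values are log2 differences, wild type first and double deletion second. MIG1, the remaining called gene, had 0.23 and -0.03.

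Genes of glycolysis and fermentation were called in both directions. Of 29 members, 7 were called higher (24.1%, against 9.42% of all genes) and 4 lower (13.8%, against 14.6%), with a median of 0.11. In the 8-array fit 4 were higher and 1 lower, with 2 higher without either plus RPL12A array and 1 higher without either plus RPL12B array. HXK1, the hexokinase isozyme used on poor carbon sources, had 4524 and 4784 on replicate 2, against 1119 and 861 on replicate 1, a log2 difference of 2.24. GLK1, glucokinase, had 3695 and 3940 on replicate 2, against 2170 and 1833 on replicate 1. HXK2, the main hexokinase in glucose, differed by 0.18 and did not pass the test; it and the other isozymes in the rest of this paragraph were named after their values were seen. The pyruvate kinase isozyme PYK2 rose by 0.88, while the major one, CDC19, differed by 0.11 and did not pass. ADH2, the alcohol dehydrogenase that uses ethanol, fell by 0.93. Of the aldehyde dehydrogenases, ALD4, the main mitochondrial form, had 2248 and 2550 on replicate 2, against 1388 and 1365 on replicate 1. ALD3 and ALD5 rose by 1.02 and 0.24, and ALD2 fell by 0.34.

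Respiratory genes moved in part. Of 45 genes of the respiratory chain and ATP synthase, 12 were called higher (26.7%, against 9.42% of all genes) and none lower, with a median of 0.15. The fit to 8 arrays called 6 higher, and 1 with any 1 plasmid array left out. STF2, which stabilises the inhibited ATP synthase, had 4923 and 5629 on replicate 2, against 1463 and 1388 on replicate 1. CYC7, the minor cytochrome c, had 894 and 1349 on replicate 2, against 431 and 450 on replicate 1, and COX5B, the minor form of cytochrome oxidase subunit 5, rose by 0.92. CYB2, which oxidises lactate, rose by 1.01. The major forms were flat by comparison: CYC1 differed by -0.03 and COX5A by 0.05, neither past the test, both named after their values were seen. HAP4, the limiting activator of respiratory genes, had 1933 and 1831 on replicate 2, against 1196 and 1216 on replicate 1. CAT8, an activator of gluconeogenic genes, rose by 1.10, with 98.3 and 130 on replicate 2, against 50.9 and 55.0 on replicate 1; HAP4 and CAT8 were named after their values were seen. In the citric acid and glyoxylate cycles 3 of 30 genes were called higher (10.0%) and 2 lower (6.67%), shares near or below the 9.42% and 14.6% of all genes. They include MDH2, a cytosolic malate dehydrogenase, at 0.61 and CIT2, a peroxisomal citrate synthase, at -0.46.

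Of the 15 largest rises, GSY1, IGD1, GLC3, PGM2 and GAC1 are storage carbohydrate genes described above, and others are on none of the lists. RGI1, a protein needed for normal energy metabolism in respiring cells, had 5418 and 5863 on replicate 2, against 434 and 315 on replicate 1, a log2 difference of 3.93 (SE 0.12, limma adjusted p = 1.9e-09), the highest of the genes tested. YJR115W had 439 and 642 on replicate 2, against 36.2 and 41.9 on replicate 1. ISF1, a gene linked to mitochondrial function, had 1469 and 1955 on replicate 2, against 171 and 215 on replicate 1. The remaining genes among the 15 largest rises were YNR014W, YNL194C, YMR206W, TMA10, EGO4 and YLR177W, with log2 differences of 3.06, 3.01, 2.70, 2.61, 2.55 and 2.55. All 15 were called in each 4-array setting tried except 1 of them under robust variances, and in the 8-array fit. With an array left out of that fit 13 were called without either plus RPL12A array and 5 without either plus RPL12B array, and 0 were called with a term for low 25S signal in place of the replicate term.

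General stress genes rose in number but not as a block. Of 66 genes of the general stress response, 34 were called higher (51.5%, against 9.42% of all genes) and 4 lower (6.06%, against 14.6%), with a median of 0.35. MPC3, a subunit of the mitochondrial pyruvate carrier, had 2188 and 2285 on replicate 2, against 438 and 379 on replicate 1. USV1, a zinc finger regulator, had 381 and 589 on replicate 2, against 95.1 and 93.6 on replicate 1. CTT1, cytosolic catalase, had 847 and 1439 on replicate 2, against 412 and 366 on replicate 1. These 3 genes are clear of overlap, and CTT1 and USV1 stood higher in plus RPL12B than in plus RPL12A on replicate 2. HSP12, a membrane protein often used as a marker of the response, had 5722 and 6123 on replicate 2, against 5809 and 5212 on replicate 1, and did not pass (log2 difference 0.11, adjusted p = 0.27). HSP26, a small heat shock protein, went the other way, with 604 and 1046 on replicate 2, against 2167 and 1980 on replicate 1. The 8-array fit called 23 members of the list higher and 1 lower. Without either plus RPL12A array 7 members were called higher in the 8-array fit, and without either plus RPL12B array 0. The list median was 0.12 in plus RPL12A and 0.59 in plus RPL12B, 0.06 in the wild type and -0.44 in the double deletion. Among 38 antioxidant genes 7 were called higher (18.4%) and 3 lower (7.89%), and OYE3, an NADPH oxidoreductase, fell by 1.08.

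Chaperone genes fell more often than they rose. Of 53 members, 14 were called lower (26.4%, against 14.6% of all genes) and 2 higher (3.77%). The median was -0.10 in plus RPL12A and -0.04 in plus RPL12B, and -0.09 in both the wild type and the double deletion. Fitted with all 8 arrays, 5 were called lower and 1 higher, and 0 with any 1 plasmid array left out, while 7 were called lower with arrays centred on their median gene. HSP82, the inducible Hsp90, had 582 and 769 on replicate 2, against 1407 and 1106 on replicate 1, and was also lower on replicate 2 in the double deletion (1324 against 2423). JJJ3, a J-domain protein, fell by 1.42. HSP42, a small heat shock protein, was 1 of the 2 that rose, with 1701 and 2142 on replicate 2, against 726 and 602 on replicate 1.

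Genes that peak in G1 fell. Of 33 members, 21 were called lower (63.6%, against 14.6% of all genes) and none higher, with a median of -0.53; the median was -0.37 in plus RPL12A and -0.62 in plus RPL12B, and -0.20 in the wild type and -0.09 in the double deletion. PCL1, a G1 cyclin of the Pho85 kinase, had 262 and 160 on replicate 2, against 1139 and 1147 on replicate 1, a log2 difference of -2.48 (SE 0.15, limma adjusted p = 2.1e-07). YOX1, a homeodomain repressor of M/G1 genes, had 256 and 175 on replicate 2, against 1122 and 1072 on replicate 1. CLB6, an S-phase cyclin, had 63.6 and 62.5 on replicate 2, against 289 and 266 on replicate 1. The replicate 1 arrays of both strains lay close together in all 3 genes and the replicate 2 arrays lay below them. MCD1, a cohesin subunit, fell by 1.62 on the log2 scale, and PCL2, a second Pho85 cyclin, by 1.43. The G1 cyclins CLN2 and CLN1 fell by 0.80 and 0.58. CLB5, the partner of CLB6, fell by 1.11, RNR1, a ribonucleotide reductase subunit, by 0.93, and WHI5, which restrains G1 transcription, by 0.87. CLN3, SWI6 and MBP1, which act upstream of these genes, differed by 0.00, 0.10 and 0.10 and did not pass. CLN3 and MBP1 had opposite signs in the strains. SWI4, also upstream, was lower in both strains (-0.20 in plus RPL12A, -0.35 in plus RPL12B) and did not pass (mean -0.27, limma adjusted p = 0.115). CLN3, SWI4, SWI6, MBP1, PCL2, CLN1, CLN2, CLB5, RNR1 and WHI5 were named after their values were seen. The 8-array fit called 15 of the 33 members lower and none higher. In the 8-array fit 6 and 7 were called lower without plus RPL12A replicates 1 and 2, and 0 without either plus RPL12B array. In an unsorted culture, fewer cells in G1 to S and less transcript per cell cannot be told apart.

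**Figure D3:**
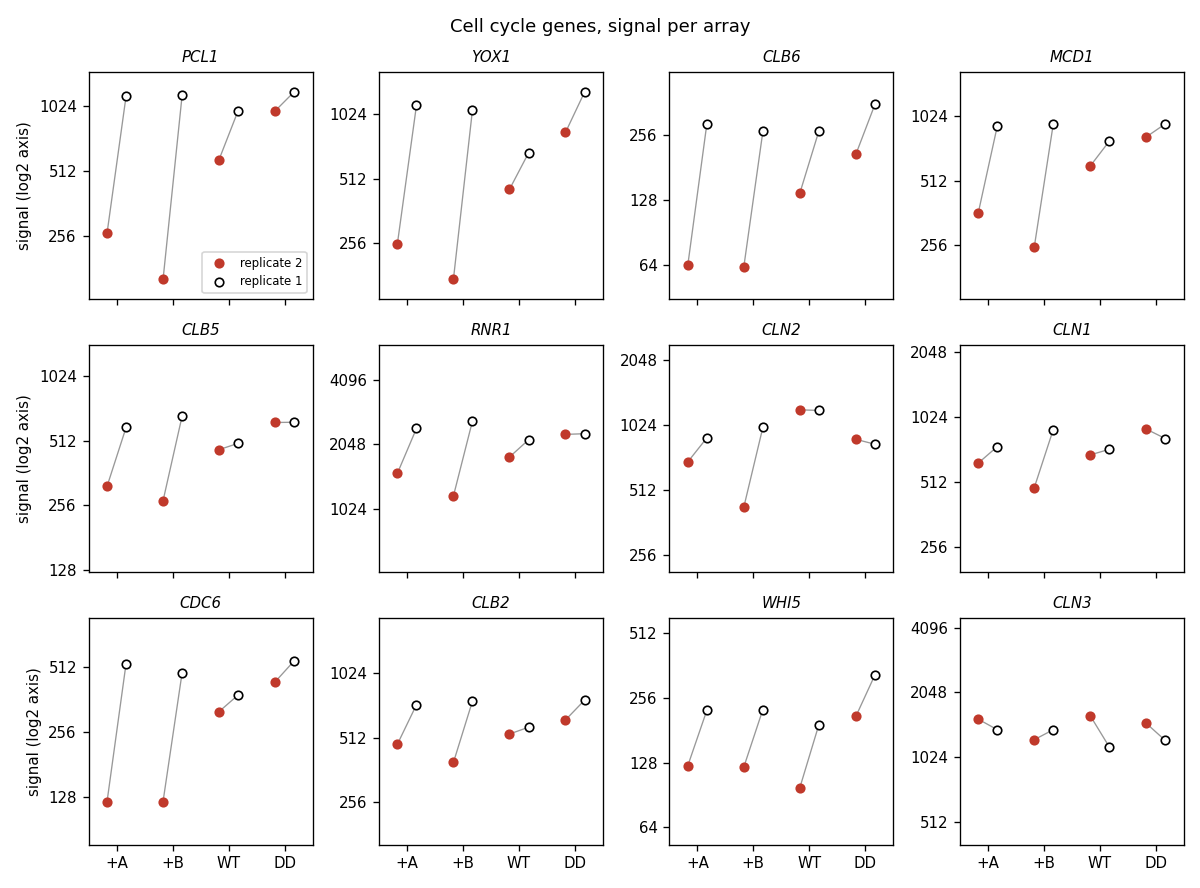
Signal on each array (log2 axis, with the same number of doublings in each panel) of 12 cell cycle genes, with replicate 2 filled and replicate 1 open, in plus RPL12A (+A), plus RPL12B (+B), wild type (WT) and double deletion (DD). PCL1, YOX1, CLB6 and CDC6 lie far lower on replicate 2 in both plasmid strains, with smaller gaps the same way in the other strains, and CLN3 moves little, with opposite signs in the plasmid strains.

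Some genes that peak in mitosis and at the exit from it fell too. Of 34 members, 14 were called lower (41.2%, against 14.6% of all genes) and none higher, with a median of -0.24. The 8-array fit called 9 lower, 2 without either plus RPL12A array and 1 without either plus RPL12B array. CDC6, which licenses replication origins, had 121 and 121 on replicate 2, against 532 and 482 on replicate 1, a log2 difference of -2.06. CLB1 and CLB2, the mitotic cyclins, fell by 0.87 and 0.78, and BUD4, needed for axial budding, by 0.87. Histone genes did not pass the test (0 of 9 called, with median 0.09). NRM1 and YHP1, a corepressor and a homeodomain repressor of the G1 and M/G1 genes, fell by 1.68 and 1.34, and were named after their values were seen.

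Some genes that build ribosomes fell. Of 133 ribosome assembly factors, 39 were called lower (29.3%, against 14.6% of all genes) and none higher, with a median of -0.16. DBP8, an RNA helicase, had 612 and 483 on replicate 2, against 1220 and 1259 on replicate 1, and fell by 1.19 on the log2 scale (SE 0.12, limma adjusted p = 1.6e-05). LCP5 and RRP36, factors of small subunit processing, fell by 1.10 and 1.13. In the 8-array fit 14 of the 133 were called lower, and 0 with any 1 plasmid array left out, while 22 were called with arrays centred on their median gene. The double deletion went the other way, with a list median of 0.36, against -0.06 in plus RPL12A, -0.25 in plus RPL12B and 0.02 in the wild type. Of 41 genes of RNA polymerases I and III, 14 were called lower (34.1%) and none higher. The 8-array fit called 10 of them lower, 1 without either plus RPL12A array and 0 without either plus RPL12B array. RRN11, of the core factor that recruits polymerase I, had 240 and 202 on replicate 2, against 639 and 694 on replicate 1, and RRN7, of the same factor, fell by 1.07.

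Few ribosomal protein genes were called. Among 73 genes of the large subunit 0 were called higher and 2 lower (2.74%), with a median of 0.06 that turned to -0.02 under quantile normalization and -0.00 when arrays were centred on hybridisation controls. Among 53 genes of the small subunit 2 were called higher and 2 lower (3.77% each way), with RPS9A the lowest at 1887 and 2510 on replicate 2, against 3279 and 3354 on replicate 1. The translation factor list had 1 of 40 members called lower, at -0.34. This was GCD14, a tRNA methyltransferase subunit and not itself a translation factor. Of the tRNA synthetases 0 of 21 were called in either direction. Of the mitochondrial ribosomal proteins 7 of 76 were called higher (9.21%, near the 9.42% of all genes) and none lower, with 1 called in the 8-array fit.

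Genes of several nutrient pathways were called lower more often than the 14.6% of all genes. Of 16 thiamine genes 9 were called lower (56.2%) and none higher, with a median of -0.33. In the 8-array fit 4 of them were called, and 0 with any 1 plasmid array left out. THI20, an enzyme of thiamine synthesis, had 487 and 510 on replicate 2, against 751 and 771 on replicate 1. Of 39 genes of sulfate and methionine metabolism 17 were called lower (43.6%) and 1 higher. Fitted with all 8 arrays, 8 were called lower, 1 without either plus RPL12A array and 0 without either plus RPL12B array. MET8, needed for sulfite reductase, fell by 0.97, MET31, a regulator, by 0.96, and the methionine permease gene MUP1 by 0.92. Among 25 amino acid permease genes 7 were called lower (28.0%) and 2 higher (8.0%), and among 31 iron genes 7 lower (22.6%) and 2 higher (6.45%). Neither list kept a call in the 8-array fit with any 1 plasmid array left out. The iron median was -0.19 in plus RPL12A and -0.06 in plus RPL12B, and -0.40 in the wild type and -0.16 in the double deletion.

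Autophagy genes were called higher more often than the 9.42% of all genes. Of 32 members, 10 were called higher (31.2%) and 1 lower, with 6 higher in the 8-array fit and 0 with any 1 plasmid array left out. ATG39, a receptor for autophagy of the nucleus, had 313 and 500 on replicate 2, against 198 and 187 on replicate 1. Zinc genes were called both ways, 3 of 18 higher (16.7%) and 2 lower (11.1%, against 14.6% of all genes). The zinc importer gene ZRT1 had 1290 and 1266 on replicate 2, against 556 and 712 on replicate 1. Nitrogen genes were also called both ways, 4 of 32 higher (12.5%) and 5 lower (15.6%, near the 14.6% of all genes). The proline oxidase gene PUT1 had 1546 and 1464 on replicate 2, against 606 and 715 on replicate 1, while GDH3, a glutamate dehydrogenase, fell by 0.64. Of 28 phospholipid genes 7 were called higher (25%) and 5 lower (17.9%), and of 24 multidrug transport genes 4 higher (16.7%) and 7 lower (29.2%). The 8-array fit called 5 phospholipid genes higher and 1 lower, and 2 multidrug genes higher and 4 lower. Of 14 pyrimidine genes 4 were called lower (28.6%, against 14.6% of all genes) and none higher. Of 33 mating genes 6 were called lower (18.2%) and 2 higher (6.06%). Of 5 aryl alcohol dehydrogenase genes 2 were called lower (40.0%) and none higher. In the 8-array fit 3 pyrimidine genes, 1 mating gene and 0 aryl alcohol dehydrogenase genes were called lower. In the phosphate, Gcn4, purine, ergosterol, peroxisome, proteasome, meiosis, cell wall, secretion, subtelomeric and mediator lists, the share called was at most 12.2% higher and at most 12.5% lower.

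The 15 largest falls also held genes of other or unknown function. YGR079W had 171 and 142 on replicate 2, against 935 and 1039 on replicate 1, a log2 difference of -2.66, the lowest of the genes tested. AQR1, a plasma membrane transporter on the multidrug list that exports drugs and amino acids, had 239 and 157 on replicate 2, against 1036 and 1132 on replicate 1. BSC1 had 10.2 and 9.45 on replicate 2, against 68.1 and 55.8 on replicate 1, so its replicate 2 values stood just above background. HLR1, YGR035C and YJL047C-A fell by 2.61, 2.23 and 1.88. Of the 15 largest falls, 12 were called in the 8-array fit, 5 without either plus RPL12A array, 3 without either plus RPL12B array and 0 with the term for low 25S signal. YLR462W, YEL076C, YFL065C and YFL064C fell by 2.18, 1.86, 1.85 and 1.76. These 4 reading frames lie in the repeated Y' elements near chromosome ends, and because such copies are nearly identical the probe sets may not tell them apart.

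Selection markers showed small differences. URA3 had 6895 and 6206 on replicate 2, against 6636 and 5776 on replicate 1, and did not pass. LEU2 had 2158 and 2371 on replicate 2, against 1810 and 1797 on replicate 1, and rose by 0.33, while ADE2 and CAN1 fell by 0.47 and 0.36. HIS3 and SUL1, a sulfate permease, differed by -0.19 and -0.10 and did not pass.

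The strains were also compared with each other. No gene passed the test for a different replicate effect in plus RPL12B and plus RPL12A (0 of 5437 by limma on 8 arrays, 70 at an unadjusted p under 0.05). The plasmid arrays leave no residual in this fit. Its spread comes from the replicate differences of the wild type and double deletion, with 2 residual degrees of freedom. The lack of calls therefore does not show that the plasmid strains agree. PHO84, the high-affinity phosphate transporter, went opposite ways, with 347 on replicate 2 against 1103 on replicate 1 in plus RPL12B and 1119 against 843 in plus RPL12A, and it was the 1 gene called when arrays were centred on the hybridisation controls. The other genes chosen as opposite in the strains were AIM26, HOP2, GTO3, YDL085C-A, YHR213W-A, YJL027C, RPL41A, GSC2, YHL008C, SDA1 and YNR065C, and none passed.

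The plasmid strains differed from the other strains in part of these changes. A contrast of their replicate difference with that of the wild type and double deletion was chosen after the data were seen. By limma on 8 arrays it called 132 genes higher (2.43%) and 128 lower (2.35%). The total of 260 became 203 with arrays centred on their median gene, 172 under quantile normalization and 364 when centred on hybridisation controls. It was 38 without the intensity trend. Without these changes of setting, it called 13 of 22 trehalose and glycogen genes and 22 of 66 general stress genes higher. It called 8 of 33 G1 genes and 15 of 133 ribosome assembly genes lower. None of these lists had a member called the other way. The contrast averages the wild type and the double deletion. In that order their list medians were 0.02 and -0.29, 0.06 and -0.44, -0.20 and -0.09, and 0.02 and 0.36. Calls can thus come in part from a change in the double deletion. HXT2 was not called (contrast 0.04, limma adjusted p = 0.97), since its mean rise in the other strains was close to that in the plasmid strains.

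A smaller group moved with the replicate number in all 4 strains. A fit of 1 replicate term shared by the strains called 12 genes higher (0.221%) and 22 lower (0.405%), with 1265 genes at an unadjusted p under 0.05. YKR075C had 3610 and 3831 on replicate 2 of the plasmid strains, against 962 and 1026 on replicate 1, and was higher on replicate 2 in the wild type (2484 against 1119) and the double deletion (1924 against 461). HXT4 and HAP4 were in this group, as were NCE103, carbonic anhydrase, and BIO2, biotin synthase, with shared log2 differences of 0.52 and 0.65. The 22 lower genes included HSP82, WHI5, MET28, a regulator of sulfur genes, SUL2, a sulfate permease, and RRT5. RRT5 had 16.2 and 11.1 on replicate 2 of the plasmid strains, against 94.7 and 63.6 on replicate 1, with 38.7 against 227 in the wild type and 12.7 against 80.7 in the double deletion. The Y' element frames YLR462W, YFL065C, YFL064C, YEL076C-A, YBL111C and YBL112C were among the lower genes too. Of the 15 largest rises listed above none was called in this fit. The fit counts disagreement between strains as spread, which works against genes picked for large rises in the plasmid strains. It therefore cannot show that these rises were absent from the other strains.

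**Figure D4:**
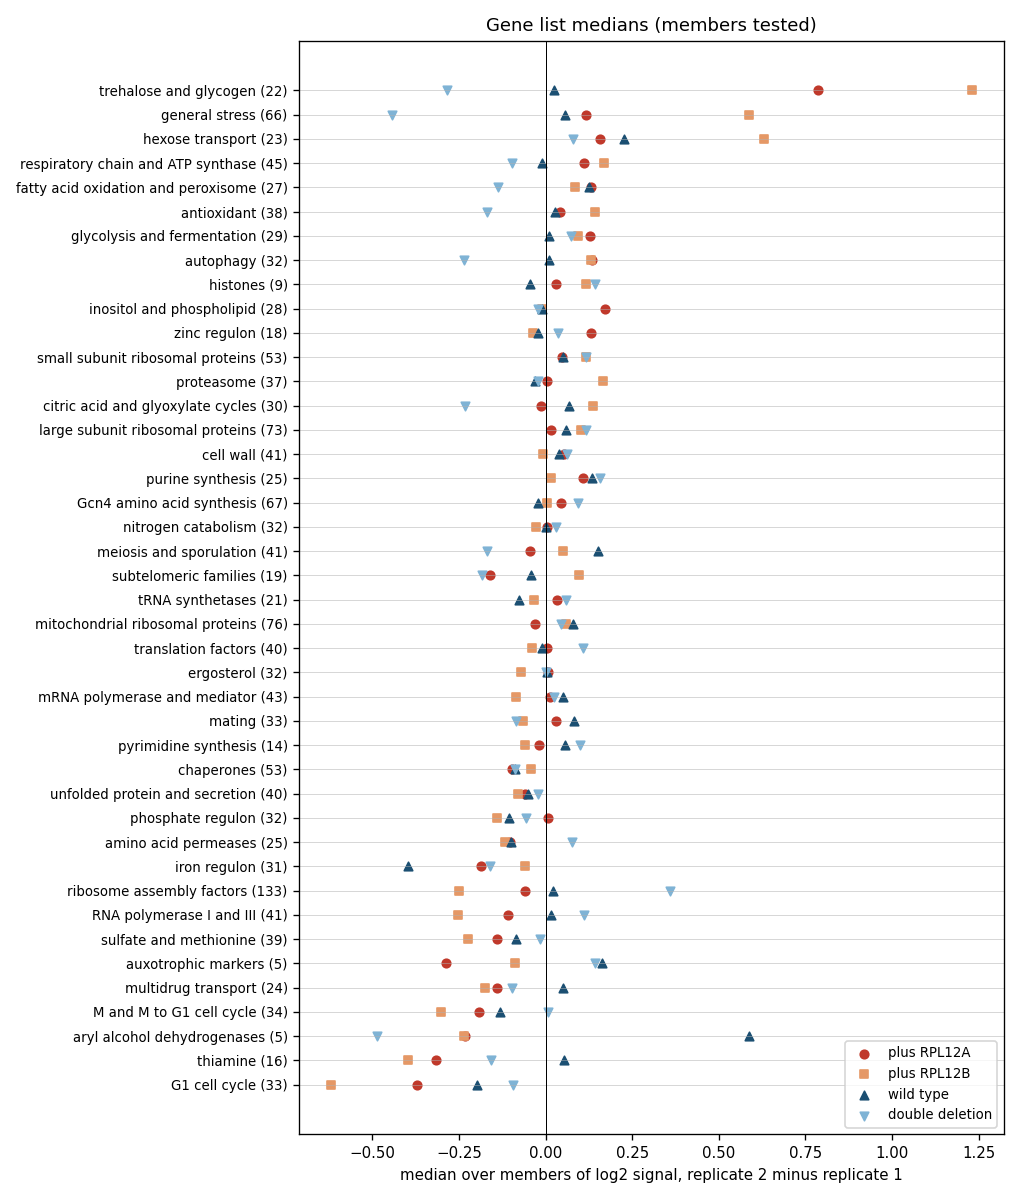
Median over the tested members of each of 42 gene lists of the log2 signal difference, replicate 2 minus replicate 1, in plus RPL12A, plus RPL12B, wild type and double deletion, with the number of members tested in brackets. Trehalose and glycogen genes lie farthest right in both plasmid strains and G1 genes farthest left, while ribosome assembly factors lie right of 0 in the double deletion.

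Control probe sets moved with the replicate number, and their part in the results above was not tested. The 25S ribosomal RNA control had 277 and 312 on the replicate 2 plasmid arrays, against 5720 and 4933 on the replicate 1 arrays, and 16 of 17 ribosomal RNA controls were lower on both replicate 2 plasmid arrays. Within the plasmid strains this split cannot be told apart from the replicate number. The wild type showed the same drop, with 148 on replicate 2 against 2476 on replicate 1, and there the list medians were 0.02 for trehalose and glycogen, -0.20 for G1, -0.13 for mitosis and M/G1, 0.23 for hexose transport and -0.40 for iron. The double deletion showed no such drop of the 25S control, with 3947 on replicate 2 against 4319 on replicate 1. Of the 17 ribosomal RNA controls, however, 11 were lower on its replicate 2, against 16 for the wild type. The ratio of 3' to 5' signal of SRB4, a measure of RNA integrity and labelling, was 6.78 and 6.20 on the replicate 2 plasmid arrays, against 3.39 and 3.16 on replicate 1. It was 5.07 against 3.21 in the wild type and 5.02 against 3.18 in the double deletion, so it moved in all 4 strains. Of 8 genes with such controls, the ratio was higher on both replicate 2 plasmid arrays than on both replicate 1 arrays in 4. Compared within each strain, it was higher on replicate 2 in 5 genes in plus RPL12A. The number was 7 in plus RPL12B, 7 in the wild type and 7 in the double deletion.

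**Figure D5:**
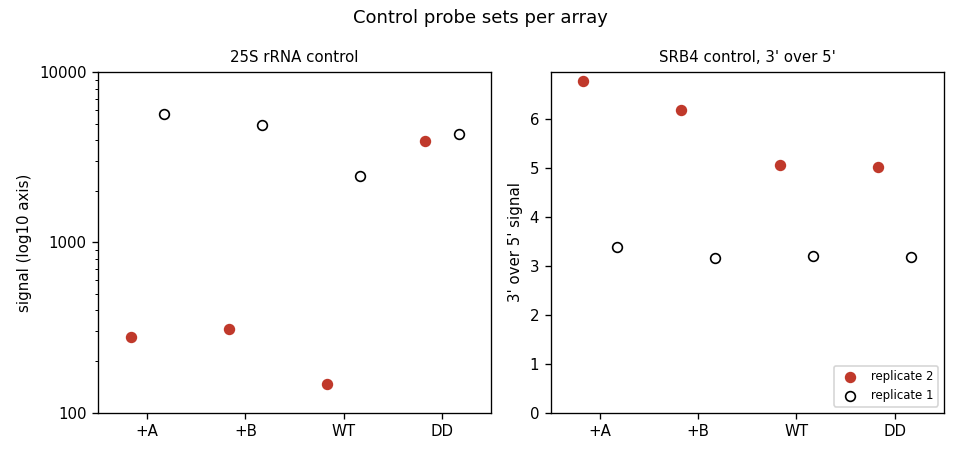
Signal of the 25S ribosomal RNA control (log10 axis) and the ratio of 3' to 5' signal of the SRB4 control (linear axis from 0) on each array, with replicate 2 filled and replicate 1 open, in plus RPL12A (+A), plus RPL12B (+B), wild type (WT) and double deletion (DD). The 25S signal is low on replicate 2 in 3 of 4 strains, and the SRB4 ratio is higher on replicate 2 in all 4.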

How the data were processed

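Total RNA of 8 cultures was labelled from 10 ug and hybridised to yeast expression arrays, per the labels' protocols. The deposited values are linear MAS5 signal intensities, 1 per probe set and array, which the authors scaled to a common trimmed mean (500.2 here). MAS5 is named in the submitters' processing notes; its version and settings are not given in the sources used here. Of 10928 probe sets, 7244 had 1 gene symbol, 1 had several and 3683 had none in the platform annotation. S. cerevisiae probe sets (5498, for 5449 genes) were kept, with the brightest probe set per gene, and genes above background on at least 2 of the 4 plasmid arrays were tested (5437). The main test was limma 3.58.1 in R 4.3.3 on log2 intensity without a pseudocount: a mean per strain and a replicate term over the 4 plasmid arrays, an intensity trend, and Benjamini-Hochberg adjustment. This leaves 1 residual degree of freedom per gene, so the spread is mostly borrowed across genes. Contrasts between strains used all 8 arrays. The scripts were tested on simulated data. Large seeded changes were recovered by the main test, but its share of false calls exceeded the threshold in some runs. Other scalings, filters, variance models and sets of arrays were tried. Genes were named as RPL12A and RPL12B, the 15 largest each way among called genes without overlap, 6 each way for the strain difference, up to 4 per list, and a fixed set (HSP12, CTT1, PHO84, SUL1, HXT1 and selection markers). Members and the 42 lists were chosen with earlier results of these data known. Array data have no read depth: the number of arrays limits precision.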

Additional observations from a re-analysis of the deposited data

Results flagged for a closer look

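The replicate difference of the plasmid strains differed from that of the wild type and double deletion in 260 genes (limma adjusted p under 0.05, a contrast chosen after the data were seen). The largest such differences, on the log2 scale, were 3.43 for GSY1, 3.22 for MRK1 and 3.19 for IGD1 upward, and -3.20 for BSC1, -2.56 for AQR1 and -2.51 for YGR079W downward. BSC1 lay close to background on the replicate 2 plasmid arrays. The count of 260 became 38 without the intensity trend and 364 when arrays were centred on hybridisation controls.

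A reporter probe set outside the gene comparison had signals of up to 7608 on the 6 arrays of the deletion background, against at most 5.89 in the wild type.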

How the results depend on the processing

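The count of 1304 called genes depended on the fit more than on the filter. It was 800 with centring on the median of the tested genes (397 higher, 403 lower), 1182 under quantile normalization and 1319 when centred on hybridisation controls (366 higher, 953 lower), against 512 higher and 792 lower as reported. It was 1269 with no filter and 1302 with the 99th percentile filter. Under all 4 scalings 346 genes were higher and 403 lower. It was 764 at a threshold of 0.01 and 181 when at least 2-fold was also required. With all 8 arrays, so that the wild type and double deletion replicate differences count as spread, it was 538. It was 996 with a separate replicate term for the wild type and double deletion, and 34 with the replicate block shared by 4 strains. A term for the 3 arrays with a low 25S control in place of the replicate term called 1. With each plasmid array left out of the 8-array fit in turn, so that 1 strain gives the difference, the count was 88 and 89 without plus RPL12A arrays and 13 without plus RPL12B arrays. The replicate numbers are not stated to pair cultures across strains, and replicate differences correlated across genes between strains from 0.05 to 0.80. The strain difference had 1 call in place of 0 with hybridisation control centring. The contrast with the other strains had 172 calls with quantile normalization, 38 without the intensity trend and 61 at a threshold of 0.01, in place of 260. Without plus RPL12B arrays the trehalose and glycogen list had 4 members called and the G1 list 0; without plus RPL12A arrays they had 7 and, for G1, 6 or 7. Signs turned, with no call on either side, for PHO84 (0.41 without plus RPL12B arrays), HSP12 (-0.022), SUL1 (0.014) and HTS1 (0.032) without them too, for ALA1 (-0.057) without plus RPL12A arrays, for GCD10 (0.0046), HIS3 (0.16) and SUL1 (0.060) with the shared block, and for URA3 (-0.012) with quantile normalization. The cause was not tested. Promoter motifs were not run.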
